A study of Bos taurus with 2 samples.

Results

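H3K4me3 regions of bovine chromosome 5 in the longissimus dorsi (LD), the loin muscle, were mapped in 2 ChIP-Seq libraries of purebred Angus steers. The tender library held pooled chromatin of 4 steers whose cooked steaks took 6.77 ± 0.56 kg to shear (Warner-Bratzler shear force, by the methods of the study). The tough library held that of 5 steers with 19.93 ± 0.39 kg. They were chosen among 19 steers of 1 herd harvested at about 12 months of age, and no treatment or genotype was given. In both groups the LD was sampled right after harvest, while the steaks were cut after the carcass had been stored for 14 days. The members were all SICER islands, the enriched stretches of the peak caller, on chromosome 5, merged across the groups wherever they overlapped by at least 1 bp. This gave 671 tender and 614 tough islands in 743 merged regions, of 13912 regions on chromosomes 1 to 29 and 14264 in all. With 1 pooled library per group, variation among steers could not be estimated, and every difference between tender and tough below lacks a check by replicates. The steers of a pool cannot be told apart, and the LD also holds cells other than muscle fibers, so fewer cells carrying the mark and less mark per cell cannot be told apart.

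H3K4me3, histone H3 trimethylated at lysine 4, is placed at the promoters of active genes, usually in short stretches around the start of transcription and in wider domains over some developmental genes. Bovine chromosome 5 carries MYF5 and MYF6, neighbouring genes of basic helix-loop-helix factors that commit cells to the muscle lineage and keep muscle fibers differentiated. It also carries the HOXC cluster, a row of homeobox genes that set position along the body axis. In the RefSeq gene table for the assembly ARS-UCD2.0, MYF6 and MYF5 lay side by side between PTPRQ and LIN7A, and 9 HOXC genes lay in a row between SMUG1 and CALCOCO1. Lists of 12 muscle genes (among them PFKM, the muscle phosphofructokinase, and MB, myoglobin), 5 connective tissue genes, such as DCN (decorin), and 5 immune genes, such as CD4, had been chosen as genes of chromosome 5, and the table placed all of them there. The lists state no build and no annotation of their build was used, so no region below was tied to any of these genes, and the muscle, connective tissue and immune markers could not be checked. Positions are those of the lists, counted from 1.

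The regions were spread unevenly along chromosome 5. They numbered 6.13 per Mb over 121 Mb, the end of the last island standing in for the length of the chromosome, which was rank 12 among the 29 autosomes (median of the other 28, 5.56, range 2.66 to 15.3). They covered 1.84% of that length, rank 10 (median of the others 1.59%). Chromosome 3, of nearly the same length, held 779 regions and chromosome 4 held 405, so chromosome 5 was close to the former and well above the latter. A 1 Mb bin held a median of 3 regions on chromosome 5, and 19 of its 121 full bins held 0. The fullest 12 bins held 41.7% of the regions, rank 4 among the autosomes (median of the others 32.7%, range 23.2% to 51.3%). The variance of the counts per bin was 9.91 times their mean, rank 5 (median of the others 6.02). An average density on chromosome 5 thus went with an uneven spread, both given as ranks and without a test.

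**Figure D1:**
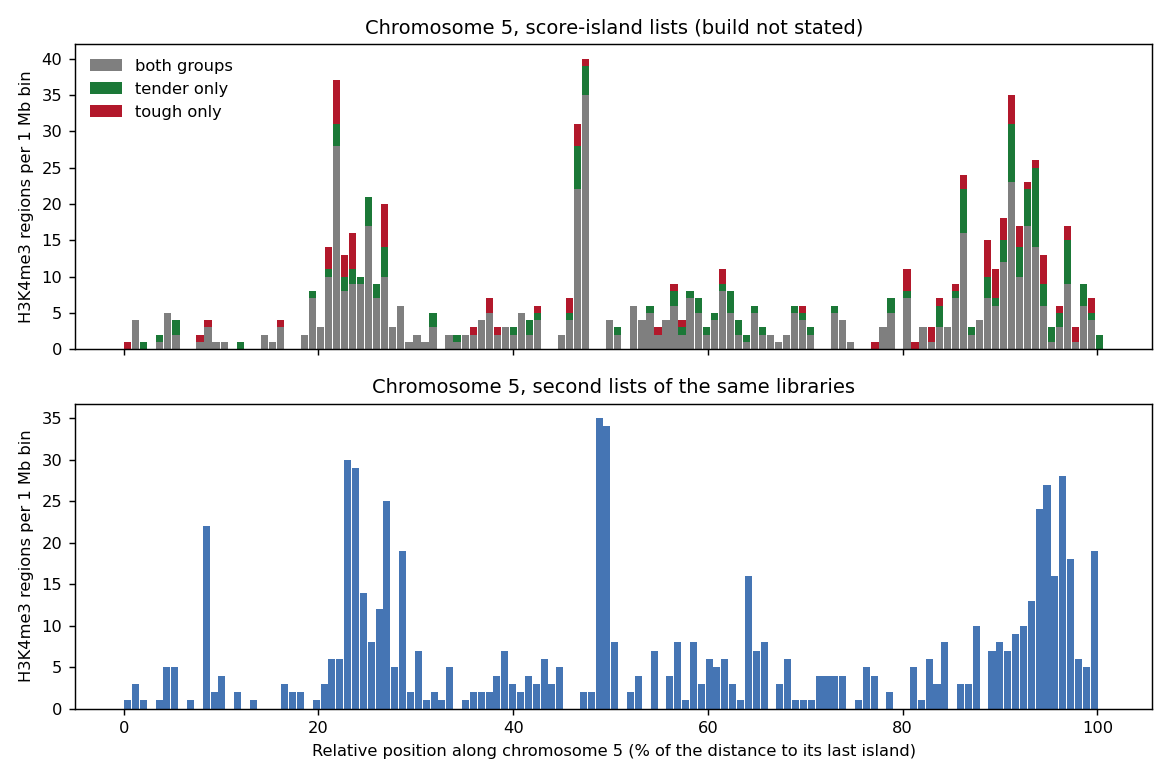
Number of merged H3K4me3 regions per 1 Mb bin (y axis) by relative position along chromosome 5 (x axis, percent of the distance to the last island), stacked by regions called in both groups, in tender only and in tough only (top), and all regions in a second pair of lists of the same libraries (bottom). In the top panel the fullest bin holds 40 regions, and the last 10% of the length holds 179 regions.

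The fullest 1 Mb bin, from 57000001 to 58000000, held 40 regions, of which 35 were called in both groups, 4 in tender only and 1 in tough only. Next came the bin from 26000001 to 27000000 with 37 regions, 28 of them shared. The bin from 110000001 to 111000000 had 35 regions and that from 56000001 to 57000000 had 31. In the bin from 113000001 to 114000000, 26 regions were called, with 14 shared, 11 tender only and 1 tough only. These 5 bins lie in 3 parts of the chromosome, near 26 Mb, around 57 Mb and beyond 110 Mb. Most bins between these parts were thinly filled, but those from 104000001 to 105000000 and from 30000001 to 31000000 held 24 and 21 regions.

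Bins with 10 or more regions, a limit chosen after the bins had been seen, formed 8 runs. The longest, from 107000001 to 115000000, held 158 regions (21.3% of the chromosome's regions). The run from 25000001 to 31000000 held 111 regions (14.9%), and the 2 bins from 56000001 to 58000000 held 71 (9.56%). All 21 such bins together held 423 regions, 56.9% of the total, on 17.3% of the length. On the other autosomes 57.2% of the regions lay in bins with 10 or more, so this share was near that of the genome. With the length cut into 10 equal pieces, the piece at the end held the most regions, 179, followed by 153 in the third from the start. The 2 pieces at the start held 24 and 19, the lowest counts of the 10.

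Gaps of 1 Mb or more between neighbouring regions numbered 23 and added up to 42.3 Mb, 34.9% of the length (rank 18, median of the other autosomes 41.8%). The largest ran from 14628601 to 17891200 and measured 3.26 Mb. The next ran from 90961401 to 93949000 (2.99 Mb) and from 85219001 to 88015400 (2.80 Mb). The fourth and the fifth were close to each other, from 51601001 to 54213200 (2.61 Mb) and from 57902201 to 60501400 (2.60 Mb). The last of these began right at the end of the densest stretch, so that the fullest bin of the chromosome bordered on 1 of its 5 largest gaps. The largest gap of chromosome 5 was rank 25 among the largest gaps of the autosomes (median of the others 4.65 Mb). The median distance between neighbours was 38.4 kb, rank 22 (median of the others 58.8 kb).

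Runs of at least 5 neighbouring regions with no gap over 20 kb, called clusters here, numbered 18 on chromosome 5 and held 105 regions, 14.1% of its total, with 11.3% over all autosomes as the background. The share was rank 7 (median of the other autosomes 7.16%), with 14 clusters on chromosome 3 and 1 on chromosome 4. The cluster with the most members, chr5:26111201-26232200, had 11 regions in 121 kb, of which 59.2% was covered, with a mean gap of 4.94 kb. It held 10 shared regions, 1 tough only region and 0 tender only regions, so it was present in both pools. The next, chr5:27950001-28027600, had 8 regions in 77.6 kb and 43.6% covered, with 5 shared, 1 tender only and 2 tough only. Of the 6 clusters with 6 regions each, the 3 of the greatest span were chr5:57316401-57401600, where all 6 regions were shared, chr5:56261401-56330400, with 3 shared, and chr5:57834801-57902200, with 4 shared. The last of these ended at the start of the gap of 2.60 Mb named above. Of the 18 clusters, the most tightly packed was chr5:56523201-56556600, with 6 regions in 33.4 kb and 67.1% covered, which was picked after its values had been seen.

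The 11 members of the largest cluster differed widely in size and score. The SICER score of an island grows with the reads in its windows of 200 bp, each window counting by how improbable its reads would be at the mean of the genome, and scores of the islands of a region were summed. At the start of the cluster stood a region of 6800 bp (from 26111201), scoring 78.7 (tender) and 61.9 (tough), and 1 of 6400 bp (from 26134801) with 26.7 and 60.9. The tough only member, of 3600 bp from 26143401, had a score of 31.2 and 15 reads. The middle of the cluster then carried most of the signal. A region of 11400 bp (from 26157201) had 261.8 in tender and 232.5 in tough, and its neighbour of 5600 bp (from 26169601) had 321.4 and 250.8. The region of 17800 bp from 26183401 had 401.4 and 366.04, and that of 9400 bp from 26202001 had 230.4 and 205.5. Between them lay 2 small regions, from 26176001 (38.4 in tender and in tough) and from 26180601 (34.9 and 60.0). The 7 regions from 26157201 to 26215400 were separated by gaps of at most 1.6 kb. Summed over all 11 members, the score came to 1500 for tender and 1372 for tough, while the islands covered 50.2 kb in tender and 67.0 kb in tough. The tough library thus had the wider cover and the lower summed score over this cluster. Both directions were also those of most shared regions of the autosomes (60.1% longer in tough, 63.7% with the higher score in tender). The log2 ratio of the sums, tender over tough, was 0.13, with a median of 0.19 over all shared autosomal regions.

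In the cluster of 8 regions, the sum was 805 in tender and 562 in tough, with 23.0 and 27.0 kb covered. Most of it came from 1 region of 13000 bp, chr5:27980601-27993600, with 500.5 in tender and 349.9 in tough. A region of 3200 bp from 27967201 had 87.8 in tender and 26.8 in tough, and the first member, from 27950001, had 111 and 61.5. The 3 members called in a single group had scores between 24.3 and 29.6, near the lowest in the lists.

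**Figure D2:**
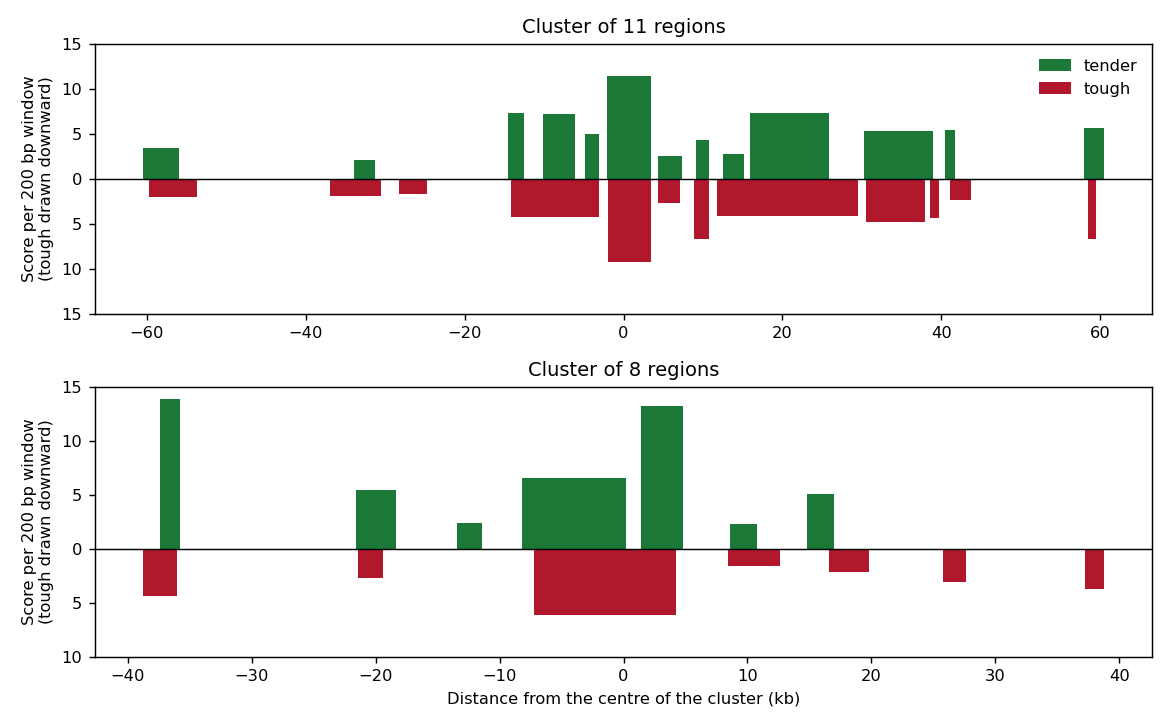
Islands of the clusters of 11 and 8 regions by distance from the centre of the cluster (x axis, kb), with the score per 200 bp window as the height (tender upward, tough downward) and the width of each bar as the width of the island. In the upper panel the island of 17800 bp in the tough library lies opposite 2 tender islands.

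Regions of 5 kb or wider numbered 72, or 9.69% of the regions of chromosome 5, with 8.06% over all autosomes as the background (rank 7, median of the others 7.46%). They held 22.0% of the covered length. Of the 72, 56 (77.8%) lay in bins with 10 or more regions, where 56.9% of all regions of chromosome 5 lay. On the other autosomes, 759 regions of 5 kb or wider lay in such bins and 291 in the other bins. Both groups had called 61 of the 72 regions of chromosome 5, the tough library alone 10 and the tender library alone 1. Of the tough only regions of chromosome 5, 11.5% were this wide, and 5.21% over all autosomes. The corresponding shares of tender only regions were 0.746% and 0.620%. Wide regions called in a single group were thus mostly tough ones, on chromosome 5 as elsewhere.

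The widest region of chromosome 5 was chr5:26183401-26201200, of 17800 bp, in the middle of the largest cluster. It was a single island in tough and 2 islands covering 12600 bp in tender. The second widest was chr5:27980601-27993600 (13000 bp) and the next chr5:32326001-32338400 (12400 bp), which had 275.9 in tender and 365.7 in tough. Then came chr5:111460401-111472000 (11600 bp), with 241.6 and 241.8 and with 87 and 94 reads, and chr5:26157201-26168600 (11400 bp), which was broken into 3 islands in tender and was 1 island in tough. Each of the 5 was called in both libraries, and each was made of 2 or more islands in tender. Chromosome 5 held 7 regions of 10 kb or more, more than any other autosome in these lists (at most 6). In the second pair of lists described below it held 4, another autosome held 8, and chromosome 5 was rank 5, so this order depended on the list used.

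The highest summed score over both libraries belonged to chr5:27980601-27993600, followed by chr5:26183401-26201200, whose values are given above. It was followed by chr5:113066201-113075400, with 364.2 in tender and 365.2 in tough. Next was chr5:104236201-104245800, with 405.3 and 307.6, and then chr5:110119001-110127800, with 400.9 and 257.7. After chr5:32326001-32338400 came chr5:1276201-1279800, with 343.5 and 272.1. That region stood out by its shape. It was 3600 bp wide, and its score per window of 26.4 in tender and 16.0 in tough was the highest of the 10, where the others had 4.11 to 12.1. The gap before it measured 1274.6 kb and the gap after it 22.6 kb, in a bin of 4 regions. The last 3 were chr5:57484201-57491400 (297.04 and 316.6), chr5:103939001-103949000 (364.4 and 227.4) and chr5:26169601-26175200 (321.4 and 250.8). Of these 10 regions, 7 had the higher score in tender and 3 in tough, and none was past 2-fold. Among all shared regions, the score was higher in tender in 62.8% on chromosome 5 and in 63.7% over all autosomes, so this split was near the background.

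Of the 743 regions, 522 (70.3%, 95% Wilson interval 66.9% to 73.4%) were called in both groups. Tender only regions numbered 134 (18.0%, 15.4% to 21.0%), with 19.7% over all autosomes, and tough only regions 87 (11.7%, 9.59% to 14.2%), with 11.3% over all autosomes. The intervals cover counting error only, and both include the value of all autosomes. The order of the groups turned with the same number of highest-scoring islands in each list (93 tender only and 110 tough only regions). It also turned, counted in single islands, when an overlap of 50% of the island's own length was needed to be shared. That rule left 157 tender only and 160 tough only islands, against 134 and 87 islands at 1 bp. Neither group thus had more of its own under every alternative. The share of tender only regions was rank 24 and that of tough only regions rank 13 among the 29 autosomes. Along the chromosome, the last 10% of the length held 50 of the 134 tender only regions and 23 of the 87 tough only regions. That stretch also held 106 of the 522 shared regions, and 179 (24.1%) of all 743 regions. In bins with 10 or more regions 66.9% of the regions were shared and 14.4% were tough only, against 74.7% and 8.13% in the other bins. On the other autosomes the same shares were 69.1% and 11.7%, against 68.6% and 10.8%. This contrast between dense and sparse bins of chromosome 5 was seen after the bins had been chosen and was not tested.

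**Figure D3:**
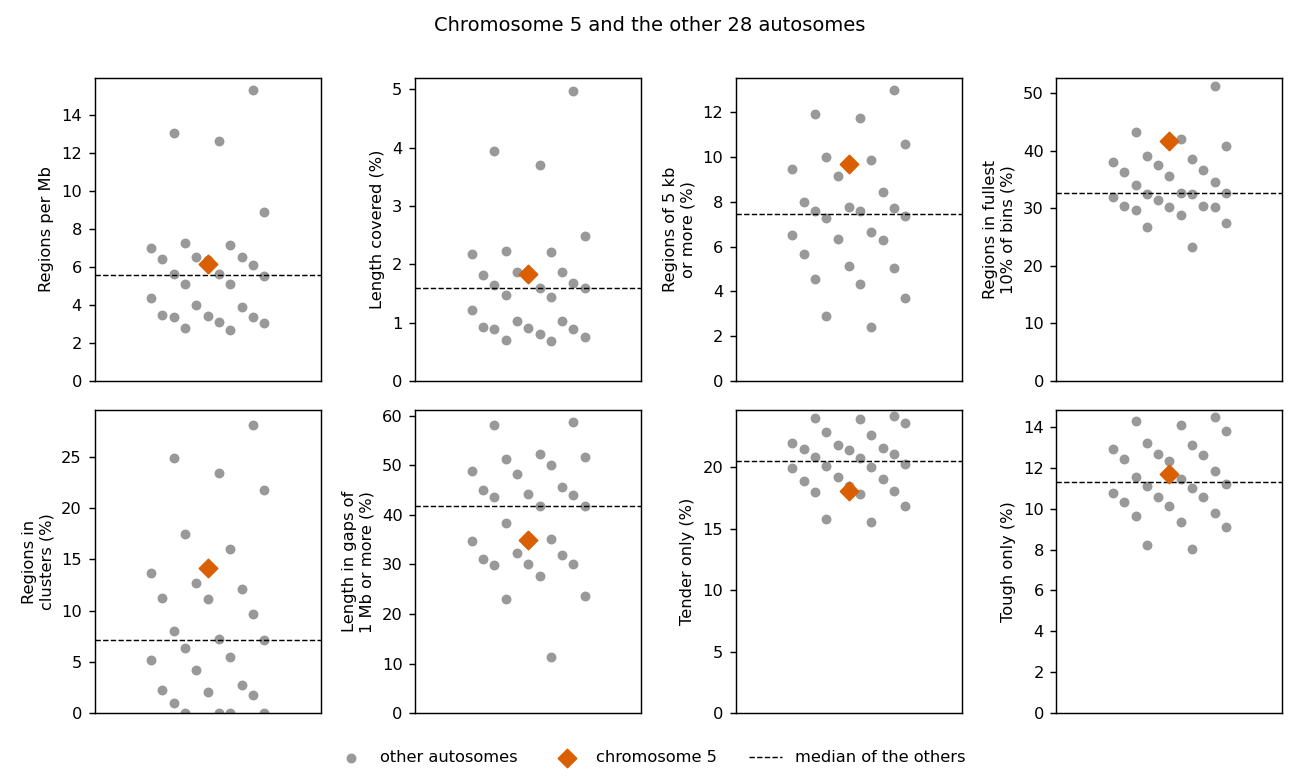
Values of chromosome 5 (diamond), of the other 28 autosomes (gray points, spread sideways for display only) and the median of those 28 (dashed line) for 8 measures, each on its own y axis in the unit given there. Chromosome 5 lies above the median in the share of regions in the fullest 10% of the bins (41.7%) and below it in the share of tender only regions (18.0%).

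Regions called in a single group were weak. Tender only islands had a median score of 30.2 and 12 reads, and tough only islands 30.3 and 14 reads, against 75.5 and 67.5, with 26 reads each, for the tender and tough islands of shared regions. They differed from each other in shape. The median width was 1800 bp in tender only and 2800 bp in tough only, and the median number of reads per kb 7.29 and 5.00. The highest-scoring tender only region was chr5:38672801-38675000, with a score of 90.6 from 30 reads. It was followed by chr5:32630801-32634000 (85.8, 33 reads), chr5:76002201-76006400 (78.6, 31 reads), chr5:38365201-38367800 (71.0, 29 reads) and chr5:88962401-88964200 (69.1, 25 reads). The first and the fourth of these lay within the same 1 Mb bin, which held 5 regions in all. The highest-scoring tough only region, chr5:32314201-32324400, had a score of 61.4 from 31 reads over 10200 bp, and ended 1.6 kb before the shared region of 12400 bp. Next came chr5:51088601-51095600 (56.7, 28 reads), chr5:26515401-26517200 (55.6, 21 reads), chr5:26459401-26465000 (51.6, 25 reads) and chr5:120932201-120933800 (50.5, 19 reads). Among the 5, 1 flanked a wide shared region, 2 lay in the full bin around 26 Mb and 2 in bins with fewer than 10 regions. A region absent from 1 list was below the threshold of the caller there, and its reads in that library are not in the lists.

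Tender islands were narrower and had the higher median score. Their median width was 2000 bp (quartiles 1400 to 2800) and that of tough islands 2400 bp (1800 to 3400), and the median score was 64.0 (35.8 to 108) and 59.1 (38.8 to 96.8). Islands whose reads could be counted held a median of 22 reads in tender and 24 in tough, the opposite order to the scores. Tender islands covered 1535 kb of chromosome 5 and tough islands 1753 kb. Within the 522 shared regions, the score was higher in tender in 328 and in tough in 194, with a median log2 ratio of tender over tough of 0.17, and of 0.19 over all autosomes. The covered length was greater in tender in 153, greater in tough in 316 and equal in 53, with a median log2 ratio of -0.20, and of -0.21 over all autosomes. Chromosome 5 therefore lay near the genome in both offsets between the libraries. By the mean number of reads per window that the scores imply, tough exceeded tender in depth by a factor of 1.17, and the part of depth in these offsets was not tested.

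Past 1.5-fold in covered length, 49 regions were wider in tender, with 9.29% over all autosomes as the background (9.39% on chromosome 5), and 135 were wider in tough, with 28.1% (25.9% on chromosome 5). Centred on the median of all autosomes, the counts were 77 and 84. A shared region was split into 2 or more islands in tender in 14 cases (background 2.69%) and in tough in 5 (background 1.10%). The most uneven examples were picked after their values had been seen. In chr5:63004801-63007600 the tender island had 2800 bp and 14 reads and the tough one 600 bp and 11 reads. In chr5:56197201-56202000 the tender island had 800 bp and 13 reads and the tough one 4800 bp and 25 reads. In the first the lengths differed far more than the reads, and in the second the reads differed as well, in the same direction as the length.

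Summed scores past 2-fold after division by the median ratio of all autosomes were higher in tender in 17 shared regions, with 3.71% over all autosomes as the background (3.26% on chromosome 5), and higher in tough in 23, with 3.87% (4.41% on chromosome 5). Both counts were near the background. Without that division they were 36 and 10, so the split between the groups turned with the scaling. The regions next to the limit on the tender side were chr5:57643001-57644800 (2.03-fold) and, outside it, chr5:94465401-94468200 (1.97-fold). On the tough side they were chr5:113569401-113571600 (2.01-fold) and chr5:57041601-57042800 (1.98-fold).

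**Figure D4:**
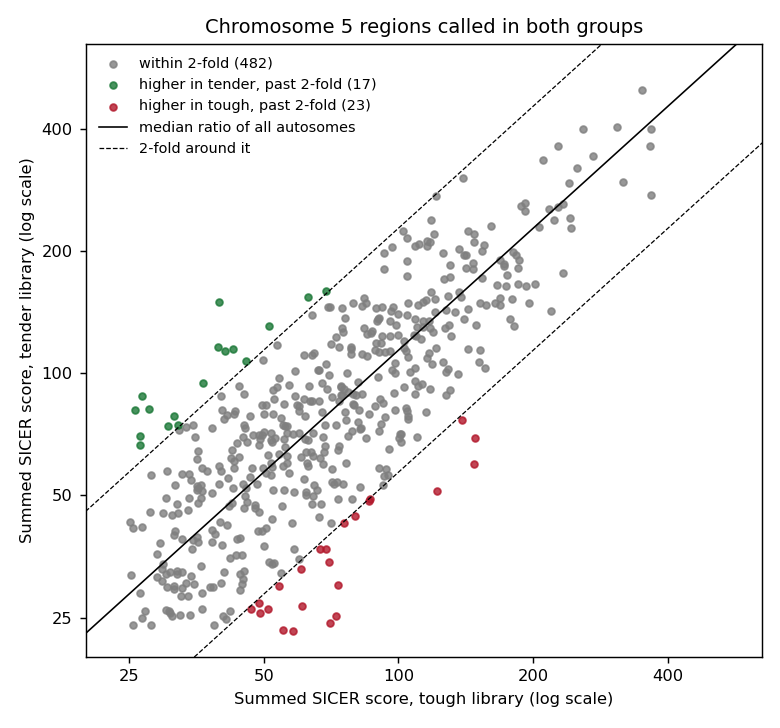
Summed SICER score in the tender library (y axis, log scale) against the tough library (x axis, log scale) for the 522 shared regions of chromosome 5, with the median ratio of all autosomes (solid line) and 2-fold around it (dashed lines). The 17 regions higher in tender and the 23 higher in tough past 2-fold are colored, and most of them have low scores in at least 1 library.

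The largest score ratio toward tender was that of chr5:19460201-19463000. Its score was 150.4 in tender and 39.7 in tough, its islands held 52 and 16 reads in 2800 and 1400 bp, and the centred ratio was 3.32-fold. It stood in a bin of 4 regions with at least 177.8 kb to either neighbour. The second, chr5:27967201-27970400, with 34 and 12 reads and a 2.87-fold ratio, belonged to the cluster of 8 regions. The third, chr5:109740001-109743600, had scores of 81.1 and 25.7 and a 2.76-fold ratio. The fourth, chr5:17891201-17893600 (81.8 and 27.7, 2.59-fold), was the first region after the largest gap of the chromosome. The fifth, chr5:79273401-79275600, had 116 and 39.5 and a 2.58-fold ratio. All 5 were also covered over a greater length in tender.

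Toward tough, chr5:84418401-84420000 had the largest ratio, with a score of 24.3 in tender and 70.2 in tough, 10 and 25 reads, and a centred ratio of 3.30-fold. Close to it was chr5:26861201-26863200 (25.2 and 72.4, 3.28-fold), in the full bin around 26 Mb. Then came chr5:29858801-29862600 (23.2 and 58.1, 2.86-fold) and chr5:44230401-44233600, with 59.8 and 147, 22 and 50 reads and a 2.81-fold ratio. The fifth was chr5:71387201-71388400 (30.1 and 73.4, 2.78-fold), which covered 1200 bp in both groups. In 4 of the 5 the ratio rested on 10 to 12 tender reads.

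Reads could be counted from the scores in both groups for 479 of the 522 shared regions, with a median of 52 reads in both groups together, 13829 reads in tender and 13607 in tough. An exact binomial test per region, with Benjamini-Hochberg adjustment over all 9012 counted regions of the autosomes, compared the 2 libraries and not the conditions. On chromosome 5, 1 region was higher in tender at an adjusted p under 0.05 (background 0.0666%) and 0 were higher in tough (background 0.0555%). At an unadjusted p under 0.05 there were 24 and 18, or 8.77% of the counted regions, and 8.67% over all autosomes. The called region was chr5:19460201-19463000, with 52 reads in tender and 16 in tough (adjusted p = 0.0209, exact binomial test). These reads come from islands of unequal length, 2800 bp in tender and 1400 bp in tough, or 18.6 and 11.4 reads per kb. Reads of the tough library outside its island are not in the lists, so a difference in reads and one in called length cannot be told apart here, as in any region of unequal islands. The next were chr5:44230401-44233600 (22 and 50 reads, adjusted p = 0.128, exact binomial test), which missed the threshold, and chr5:112605801-112608000 (23 and 49 reads, adjusted p = 0.183, exact binomial test). When the expected share of tender reads was set by the depth (46.2%), 3 regions were higher in tender, the further 2 being chr5:27967201-27970400 and chr5:109740001-109743600, with 1.17% over all autosomes as the background, and 0 were higher in tough, with 0.0555%. With reads counted only up to a score of 100, 0 of 312 regions were called. The region called above scored 150.4 in tender, so it was not counted at that limit and could not be called.

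A second pair of lists of the same libraries, with 12452 tender and 11395 tough islands in all against 12930 and 11535 in the lists used above, gave other positions. On chromosome X its last island ended at 87.9 Mb, against 148.8 Mb in the lists used above, so the lists follow different builds. On chromosome 5 it held 649 tender and 601 tough islands in 721 regions, of which 507 were shared, 125 tender only and 89 tough only. The fullest bins were those from 60000001 to 61000000 and from 61000001 to 62000000, with 35 and 34 regions, then that from 28000001 to 29000000 with 30. Its region of highest summed score, from 28875601 to 28893400, was 17800 bp wide, with 410.9 in tender and 376.7 in tough, the same width as the widest region above. The highest-scoring tough only region there, from 35331801 to 35342000, was 10200 bp wide, again the width of the first one above.

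Matching the 522 shared regions to the second lists by width (within 200 bp) and score (within 0.12 on the log2 scale) gave exactly 1 partner for 90, 57 of them on chromosome 5 and 33 on other chromosomes, several partners for 368 and none for 64. A single partner may still be a chance match. Of the 57, 54 kept their order, with positions shifted by 0.447 to 6.88 Mb. The region with the adjusted p of 0.0209 had its partner at 22050801 to 22053600, 2.59 Mb further on, with again 52 and 16 reads (adjusted p = 0.0490, exact binomial test). Of the 3 regions out of order, those starting at 104212801 and 104223801 moved together, to 10828601 and 10839601, by -93.4 Mb each. The bin of the second lists that holds them, from 10000001 to 11000000, had 22 regions, where the first 10% of the length was thinly filled in the lists used above. The third, from 82746001, had its partner at 118115801. The place of these stretches along the chromosome thus depended on the list used.

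**Figure D5:**
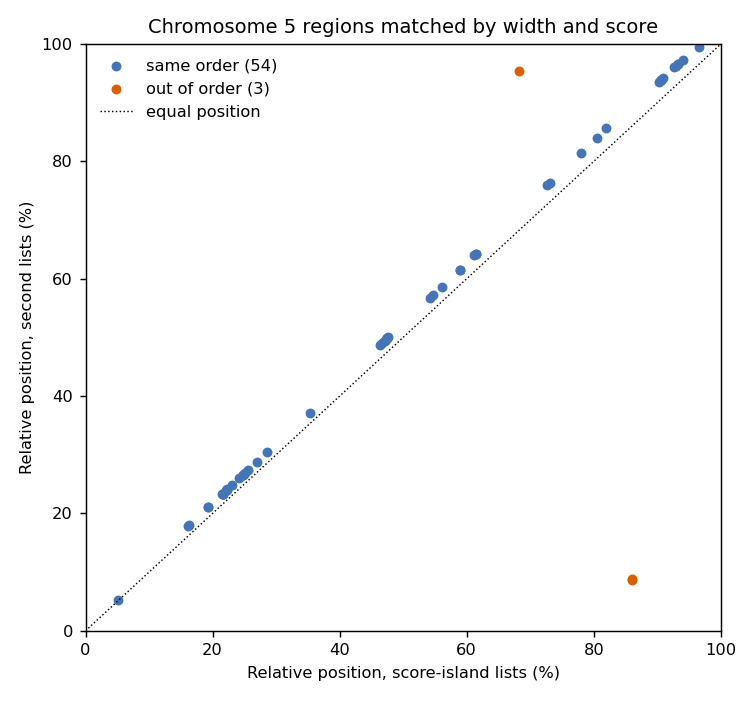
Relative position along chromosome 5 in the second lists (y axis, percent) against that in the lists used here (x axis, percent) for the 57 regions with exactly 1 partner on chromosome 5. The 54 regions in the same order run along the dotted line of equal position, and 3 lie far from it.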

How the data were processed

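H3K4me3 ChIP-Seq of LD was deposited as island lists of 1 tender and 1 tough library, pooled by the authors before immunoprecipitation. By the methods, the authors aligned reads of 25 bp to bosTau4 with Maq 0.7.1 (at most 1 mismatch, duplicates and multiply placed reads removed) and ran SICER 1.1 (windows of 200 bp, gaps of 400 bp, E-value 100). No control library is named. The deposited score of an island is a sum over windows and rises with depth. The main lists used here state no build and reach 148.8 Mb on chromosome X, so the alignment described in the methods may not be the one behind them, and neither read totals nor sequences were analysed here.

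Islands were merged across groups at an overlap of 1 bp. The mean number of reads per window (0.157 tender, 0.182 tough) was fitted to islands of a single window, and reads were then counted up to a score of 200 within a tolerance of 1.5e-09, for 95.9% of tender and 97.8% of tough islands. With the mean raised by 0.1%, 0 islands were matched. Shared regions were compared by exact binomial tests on these reads (two-sided, against the tender share of 50.8% of reads in all counted shared regions, Benjamini-Hochberg adjustment, threshold 0.05). PCR may have made reads dependent, so intervals and tests cover counting error only. Chromosome 5 was ranked among the 29 autosomes without a test. Groups came from the sample labels, and the steers of a pool are no replicates.

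Tested on simulated data, the read count was recovered exactly in 99.7% of 3000 islands. In a simulation with counting error only, a subset of the 9012 counted regions was changed by a factor of 4. Of this subset 80% was found, and 3.61% of the calls were false. Regions with the fewest reads were left out of the subset, so the 80% does not cover them. The regions named are the 10 of highest summed score, the 5 widest, the 5 highest-scoring of each single group, the 5 largest score ratios in each direction past 2-fold, and the 5 fullest bins, largest clusters and largest gaps. The members and lists were chosen with earlier results of these data known. Alternatives covered the minimum score, merging, overlap, cluster and gap limits, scaling and the expected share of reads. The second lists, the score limit of 100, regions with 1 island per group and the runs of full bins were chosen after seeing the data. Python 3.11.15, numpy 2.4.6, pandas 2.3.3, scipy 1.17.1 and matplotlib 3.10.9 were used.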

Additional observations from a re-analysis of the deposited data

How the results depend on the processing

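With only islands of at least 2 times the lowest score, chromosome 5 had 462 regions, 3.81 per Mb, 1.23% covered, 2 clusters and 30 tough only regions. Median island widths were then 2200 bp in tender and 2600 bp in tough, 4 and 7 regions were past 2-fold in score toward tender and tough, and 25 and 84 past 1.5-fold in length. Fewer islands enter by construction. Merging across gaps of up to 400 bp gave 1.84% covered (1.83903 against 1.83722), and the second lists gave 1.71%. Tough islands alone gave 8 clusters, a cluster gap of 10 kb gave 6 and one of 50 kb gave 35. A gap limit of 500 kb gave 62 gaps. An overlap of 50% of the island's own length gave 157 tender only and 160 tough only islands, against 134 and 87 islands. The same number of islands in each list gave 93 and 110 regions, against 134 and 87 regions. Past 2-fold in score, no centring gave 36 toward tender and 10 toward tough, and reads in place of scores 14 toward tough. Centring the lengths gave 77 and 84 past 1.5-fold. The read test called 3 regions higher in tender with the share set by depth and 0 with the score limit of 100. The cause was not tested for the second lists, for reads in place of scores and for the share set by depth. For the other counts the limit, the scaling, the overlap rule or the set of islands was itself changed, and no further cause was tested. At the score limit of 100 the region called in the main test was not counted, because its tender score was 150.4. The 5 largest ratios in each direction kept their direction without centring and with reads in place of scores, the 2 alternatives run for them. No paired analysis was possible because each group has 1 pooled library. For the same reason no replicate was left out. Tender only and tough only islands held medians of 12 and 14 reads, and the part of depth in them was not tested.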
